A study of Homo sapiens with 16 samples.

Results

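Knockdown of GAPDH was compared with empty vector in human myeloma cells, using 8 of the 16 RNA-seq libraries of the series. The members were taken by label: the 4 libraries with a short hairpin RNA (shRNA) against GAPDH and the 4 with the empty vector pLK0.1, called Vec below, paired within each cell background. The backgrounds were the established myeloma lines MM.1s, RPMI8226 and KMS18, and a derivative of RPMI8226 with forced expression of Mcl1, a survival protein of the BCL2 family (RPMI8226+Mcl1). The other 8 libraries came from the same backgrounds with a hairpin against CD28 or CD86, and the submitters list the GAPDH hairpin as a control beside them. Each combination of background and hairpin had 1 library, RPMI8226 and RPMI8226+Mcl1 are the same line, and no source used here gives the number or sequence of the GAPDH hairpins. The 4 backgrounds therefore served as the replicates, and a difference between backgrounds rests on 1 library a side.

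GAPDH (glyceraldehyde-3-phosphate dehydrogenase) oxidises glyceraldehyde 3-phosphate in the middle of glycolysis and reduces NAD+ to NADH in the same step. The enzymes before it turn glucose into triose phosphates, from which the pentose phosphate and hexosamine branches leave upstream, and the enzymes after it yield ATP, pyruvate and lactate, with serine synthesis leaving downstream. Its transcript is very abundant in most cells, so it is widely used as a reference gene and as a positive control for RNA interference. Plasma cells and myeloma cells secrete immunoglobulin and depend on a large endoplasmic reticulum.

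The 16 libraries held between 3914513 and 5900955 reads in genes, and the 8 compared here between 4676493 and 5900955. Levels are the deposited FPKM (fragments per kilobase of exon, scaled to library depth). Of 20 plasma cell genes, at most 1 was at 0 in any of these 8 libraries, whereas the summed level of 8 T cell markers lay between 0.481 and 3.23 FPKM. The 9 myeloid markers summed to 0.826 to 89.5 FPKM and the 8 stromal markers to 0.589 to 436 FPKM, highest in RPMI8226 and RPMI8226+Mcl1. There CD68 (42.7 to 87.3 FPKM) and FN1, which encodes fibronectin (218 to 435 FPKM), made up nearly all of these sums, while COL1A2, COL3A1, DCN and MPO were at 0 in all 8 libraries. Differences below are on the log2(FPKM + 1) scale, Gapdh shRNA minus Vec, and were tested with limma over the 11288 genes that averaged 1 FPKM or more. A Benjamini-Hochberg adjusted p under 0.05 counted as passing, and the backgrounds were a term in the fit. Because nothing says that repeat cultures were made, the p-values speak to the spread among the 4 pairs, which may be technical.

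GAPDH itself was lower with its hairpin in every background, but to very different depths. In MM.1s its level was 1187 FPKM with Vec and 630 with the Gapdh shRNA, from 10883 and 6497 reads. In RPMI8226 it was 1172 FPKM with Vec and 402 with the hairpin. In RPMI8226+Mcl1 it was 985 FPKM with Vec and 210 with the hairpin. In KMS18 it was 1241 FPKM with Vec and 133 with the hairpin, from 13208 and 1208 reads. The remaining transcript was thus 53.0% of Vec in MM.1s, 34.3% in RPMI8226, 21.3% in RPMI8226+Mcl1 and 10.7% in KMS18, with a mean of 29.8% ± 18.2 (SD, n = 4). The loss was 1.89-fold in the shallowest background and 9.35-fold in the deepest. Each depth of loss belongs to a single background, so the order of GAPDH loss is also an order of backgrounds. Depth and cell background cannot be told apart here.

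Across all 16 libraries the 4 with the GAPDH hairpin held 133 to 630 FPKM of GAPDH and the 12 without it 985 to 1387, so the groups did not overlap. CD28 and CD86 hairpins left GAPDH at 92.6% to 112% of the matched Vec library. The exact two-sided sign-flip test over the 4 backgrounds gave p = 0.125, the smallest p that 4 pairs allow. In limma the mean log2 difference was -1.97 (SE 0.32, n = 4 pairs), with an unadjusted p of 0.000433 and an adjusted p of 0.569. The spread between backgrounds enters the error, the fit has 3 residual degrees of freedom, and the adjustment runs over 11288 genes. The same gene passed when the recovered reads were tested with limma's voom (log2 -1.82, adjusted p = 0.0047) and when the Gapdh libraries were set against CD28 and CD86 shRNA in place of Vec (log2 -2.03, SE 0.27, adjusted p = 0.015). Without RPMI8226+Mcl1 that last adjusted p was 0.199. GAPDH has processed pseudogenes and the sperm isoform GAPDHS, and no source used here says how reads shared between copies were counted. GAPDHS was low, at 2.64 to 8.52 FPKM and 24 to 84 reads in a library, with a log2 difference of -0.14 (adjusted p = 0.827 in limma).

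**Figure D1:**
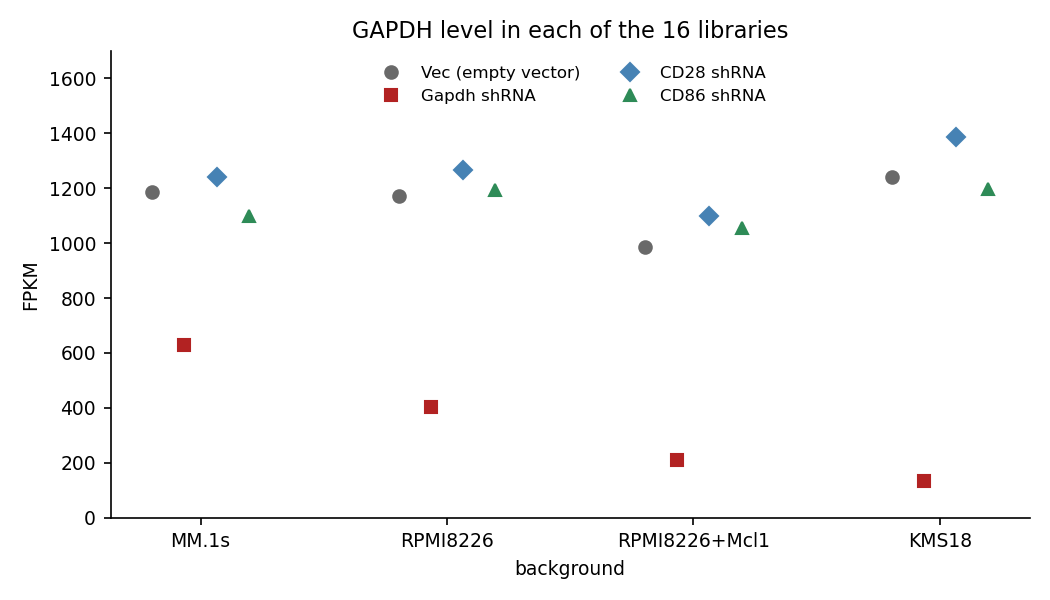
GAPDH level in FPKM (y axis, linear from 0) in each of the 16 libraries, grouped by background (x axis, in the order of GAPDH loss). Each point is 1 library and its colour and shape give the hairpin; the 4 Gapdh shRNA libraries lie between 133 and 630 FPKM and the other 12 between 985 and 1387.

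No gene passed the test against Vec, and among genes with a mean of at least 100 reads the largest mean differences after GAPDH were those of MTHFD2 (-0.94) and SLC30A1, a zinc exporter named here after its values were seen (0.55). Of 11288 genes tested, 0 passed an adjusted p under 0.05 in limma (0% of the genes tested), and the smallest adjusted p was 0.181. At an unadjusted p under 0.05 there were 355 genes higher (3.14%) and 547 lower (4.85%), 902 in all. With voom on recovered reads 5 genes passed, each lower with the Gapdh shRNA: KPNA2, GAPDH, EIF5A, HSPD1 and TUBB. KPNA2 also passed alone when only the 8162 genes with a mean of at least 100 reads were tested (adjusted p = 0.0387). In all 4 backgrounds 830 genes (7.35%) were above Vec and 1035 (9.17%) were below it. The mean difference was above 0 for 5429 of the 11288 genes and below 0 for 5859, the shares beside which the list counts below can be read.

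KPNA2, which encodes a nuclear import receptor of the importin alpha family, had the smallest unadjusted p among genes that averaged 5 FPKM or more. With Vec its level was 132 FPKM in MM.1s, 87.3 in RPMI8226, 109 in RPMI8226+Mcl1 and 99.1 in KMS18. With the Gapdh shRNA the levels were 83.8, 65.6, 83.5 and 65.2 FPKM in the same order. With CD28 or CD86 shRNA they lay between 89.0 and 182 FPKM, so within each background the Gapdh library was the lowest of the 4. The differences from Vec were -0.65, -0.41, -0.38 and -0.60, with a mean of -0.51 (SE 0.06, adjusted p = 0.21 in limma), and did not follow the depth of GAPDH loss. Against CD28 and CD86 shRNA together KPNA2 was lower by the test, with a log2 difference of -0.61 (SE 0.08, adjusted p = 0.0159 in limma). That fit uses the same Gapdh libraries as the comparison with Vec, so it is not separate support. KPNA2 passed it in 6 of 11 alternative settings, with an adjusted p of up to 0.156 in limma.

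EIF5A, a translation factor that carries the modified amino acid hypusine, showed a similar evenness at a smaller size. Its level was 366, 304, 314 and 230 FPKM with Vec in MM.1s, RPMI8226, RPMI8226+Mcl1 and KMS18. With the Gapdh shRNA it was 314, 251, 241 and 194 FPKM. The Gapdh library was again the lowest of the 4 in each background, and the mean difference from Vec was -0.28 (SE 0.04, adjusted p = 0.569 in limma). KPNA2 and EIF5A both met a naming rule that takes genes below Vec in all 4 backgrounds, so that part of the pattern follows from the choice. The share of all genes that were lowest with the Gapdh shRNA in each background was not counted. Against CD28 and CD86 shRNA the difference of EIF5A was -0.29 (SE 0.05, adjusted p = 0.0331 in limma), in a fit that shares the Gapdh libraries. EIF5A passed that fit in 5 of 11 alternative settings, with an adjusted p of up to 0.245 in limma.

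The remaining lower genes chosen by smallest unadjusted p had differences of similar size that did not pass. They were the protease BLMH (-0.36), the nucleotide pyrophosphatase DCTPP1 (-0.37), the ubiquitin-conjugating enzyme UBE2T (-0.27) and SMN2 (-0.44), a near-identical copy of SMN1 whose reads can be split between the copies. The microRNA gene MIR4258 (-0.94) rested on a mean of 5.88 reads. Among higher genes were TRIM8 (0.38), SRPR (0.23), which encodes the receptor for the signal recognition particle at the endoplasmic reticulum, the phospholipid flippase gene ATP8B2 (0.27), the lysosomal sorting receptor IGF2R (0.28), ANKIB1 (0.43) and the pseudogene CA5BP1 (0.62). SRPR was 93.0, 94.2, 79.6 and 107 FPKM with Vec and 105, 108, 94.7 and 132 with the Gapdh shRNA, so it was above Vec in all 4 pairs. The small nucleolar RNAs SNORA40 (0.33) and SNORA62 (0.98) completed that set, on means of 22.5 and 6.88 reads.

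**Figure D2:**
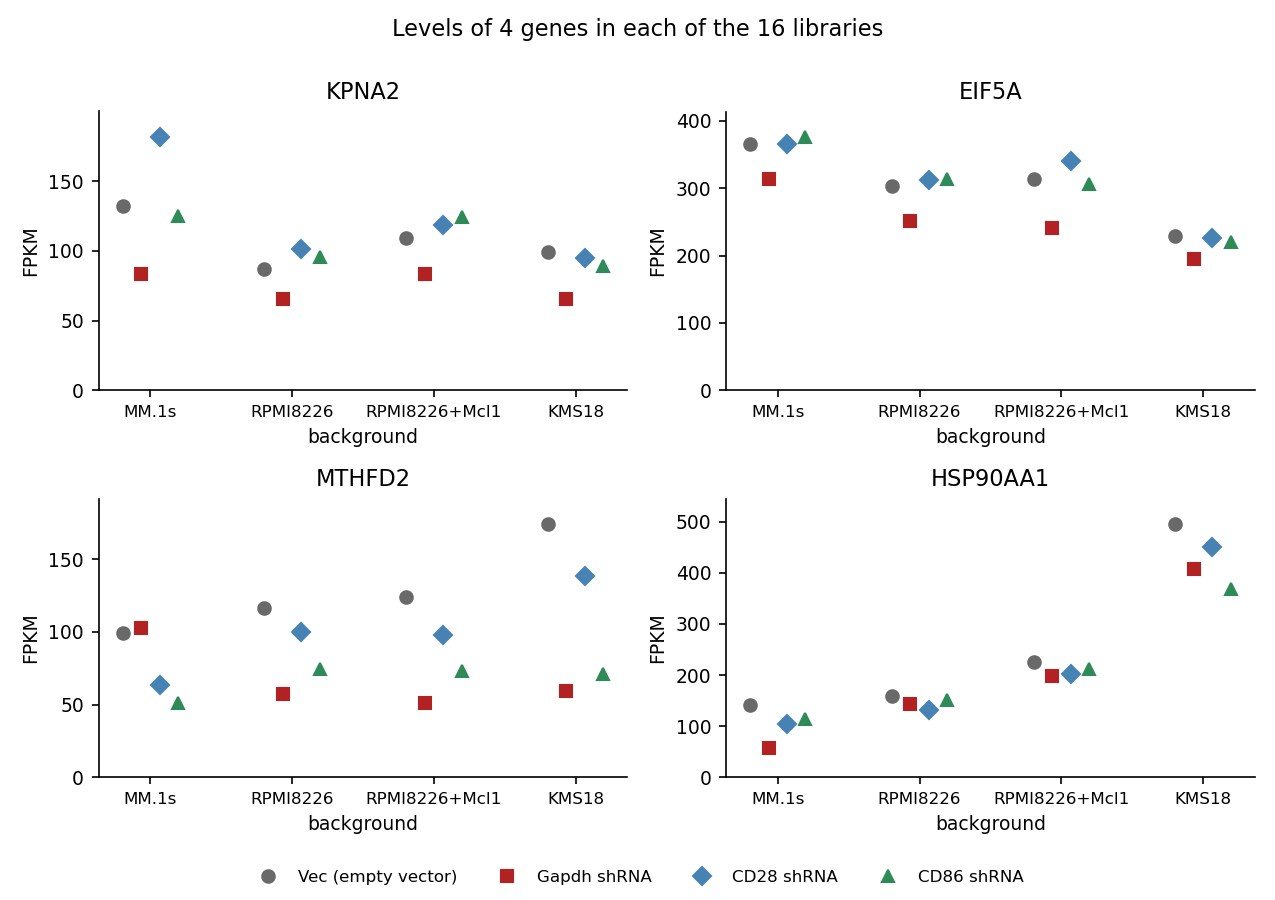
Levels in FPKM (y axes, linear from 0) of KPNA2, EIF5A, MTHFD2 and HSP90AA1 in each of the 16 libraries by background (x axes). KPNA2 and EIF5A were lowest with the Gapdh shRNA in each background, while MTHFD2 in MM.1s and HSP90AA1 outside MM.1s did not separate in this way. KPNA2 and EIF5A met a naming rule that takes genes below Vec in each background. The share of all genes that were lowest in this way was not counted.

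Of the lists with more than 5 tested members, genes of DNA replication and the G1/S transition had the largest share of members below Vec in all 4 backgrounds. Of 26 members tested, 25 had a mean difference below 0, and 16 were lower at an unadjusted p under 0.05 (over all genes 4.85%), with 0 passing the adjusted threshold. In all 4 backgrounds 19 of the 26 were below Vec, against 9.17% of all genes, and the count was also 19 after the libraries were rescaled by the median of ratios. The group's median difference was -0.16, against -0.01 over all genes tested. By background the median was -0.20 in MM.1s, -0.12 in RPMI8226, -0.11 in RPMI8226+Mcl1 and -0.18 in KMS18, which is not the order of GAPDH loss.

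All 6 subunits of the MCM replicative helicase, MCM2 to MCM7, were below Vec in all 4 backgrounds. MCM2 was 83.4, 96.7, 111 and 99.6 FPKM with Vec in MM.1s, RPMI8226, RPMI8226+Mcl1 and KMS18, and 73.9, 79.9, 90.9 and 87.6 FPKM with the Gapdh shRNA. Its mean difference was -0.23 (SE 0.04, adjusted p = 0.569 in limma). The licensing factor CDT1 was 24.4, 30.1, 42.5 and 46.7 FPKM with Vec and 21.6, 24.8, 32.0 and 35.3 with the hairpin, a mean difference of -0.31 (SE 0.06). With these, MCM5 (-0.26) and MCM7 (-0.21) made up the 4 members of smallest p. The exceptions in direction across backgrounds were SLBP, GINS1, CDC6, RRM2, CCNE2, RFC2 and POLE2. Relative to the same Vec libraries, and in the same order, the median of the 26 genes was -0.27, -0.03, -0.15 and -0.34 with CD28 shRNA and -0.17, 0.05, 0.01 and -0.08 with CD86 shRNA. Against CD28 and CD86 shRNA together the Gapdh median was -0.07, with 0 members passing.

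Replication genes are known targets of the E2F transcription factors, and their promoters can be read beside these values. The letters TTTCCCGC, TTTCGCGC, TTTGCCGC and TTTGGCGC, E2F-type motifs, were searched on both strands from 250 bases before to 50 bases after the gene start in RefSeq (GRCh38.p14). At least 1 of them stood in 13 of the 22 list members with a promoter in the table, against 521 of 8992 promoters of genes tested (5.79%) and 908 of 27305 promoters in all (3.33%). The list names genes chosen for replication, many of them textbook E2F targets, so this share describes the list and not the knockdown. In the G2/M list 2 of 18 promoters held a match, and in the endoplasmic reticulum stress list 0 of 20. A match is only these letters in this window. Windows of 30 bases before the gene start of 6 members that were below Vec in all 4 backgrounds are printed on the strand of the gene, with the motif in capitals, to show what the matches look like.
CDT1 (chr16:88803743-88803772): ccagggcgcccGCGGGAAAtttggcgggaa
GINS2 (chr16:85688967-85688996): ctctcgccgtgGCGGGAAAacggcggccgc
PCNA (chr20:5126663-5126692): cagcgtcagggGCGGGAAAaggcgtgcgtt
MCM6 (chr2:135876511-135876540): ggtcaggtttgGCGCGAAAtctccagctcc
E2F1 (chr20:33686387-33686416): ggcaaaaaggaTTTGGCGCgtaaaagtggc
TYMS (chr18:657603-657632): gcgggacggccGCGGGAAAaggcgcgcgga
The first 3 and TYMS share the same 8 letters, and the motif begins at position -35 in CDT1, -31 in GINS2, -59 in PCNA and -39 in TYMS relative to the gene start. CDT1 and TYMS lie on the plus strand, and GINS2, PCNA, MCM6 and E2F1 on the minus strand.

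Mitotic genes behaved differently between backgrounds. Of 23 G2/M members, 21 had a mean difference below 0 but only 5 were below Vec in all 4 backgrounds (9.17% of all genes), and 3 were after rescaling by the median of ratios. Their median was 0.06 in MM.1s, -0.11 in RPMI8226, -0.15 in RPMI8226+Mcl1 and -0.18 in KMS18, the order of GAPDH loss. With CD28 shRNA, which left GAPDH at 104% to 112% of the same Vec libraries, the medians were 0.34, -0.02, -0.02 and -0.19, so MM.1s was again the highest and KMS18 the lowest. With CD86 shRNA they were -0.07, 0.01, 0.06 and 0.12. For 6 of the 23 the differences became lower step by step in that order, against 5.26% of all genes: the mitotic kinase PLK1, TOP2A, the motor proteins CENPE, KIF11 and KIF23, and the phosphatase CDC25C. PLK1 differed from Vec by 0.13, 0.02, -0.06 and -0.10 in that order, and 0 of the 23 passed the test of the slope. CCNA2, the cyclin of S and G2 phases, was 63.0 FPKM with Vec and 68.0 with the hairpin in MM.1s. It was 30.8 and 21.6 FPKM in RPMI8226, 46.1 and 31.9 in RPMI8226+Mcl1, and 44.2 and 34.7 in KMS18. Its mean difference was -0.31 (SE 0.11, adjusted p = 0.599 in limma). CCNB2, a mitotic cyclin, differed by -0.22 (SE 0.07) and was level with Vec in MM.1s (-0.00063).

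**Figure D3:**
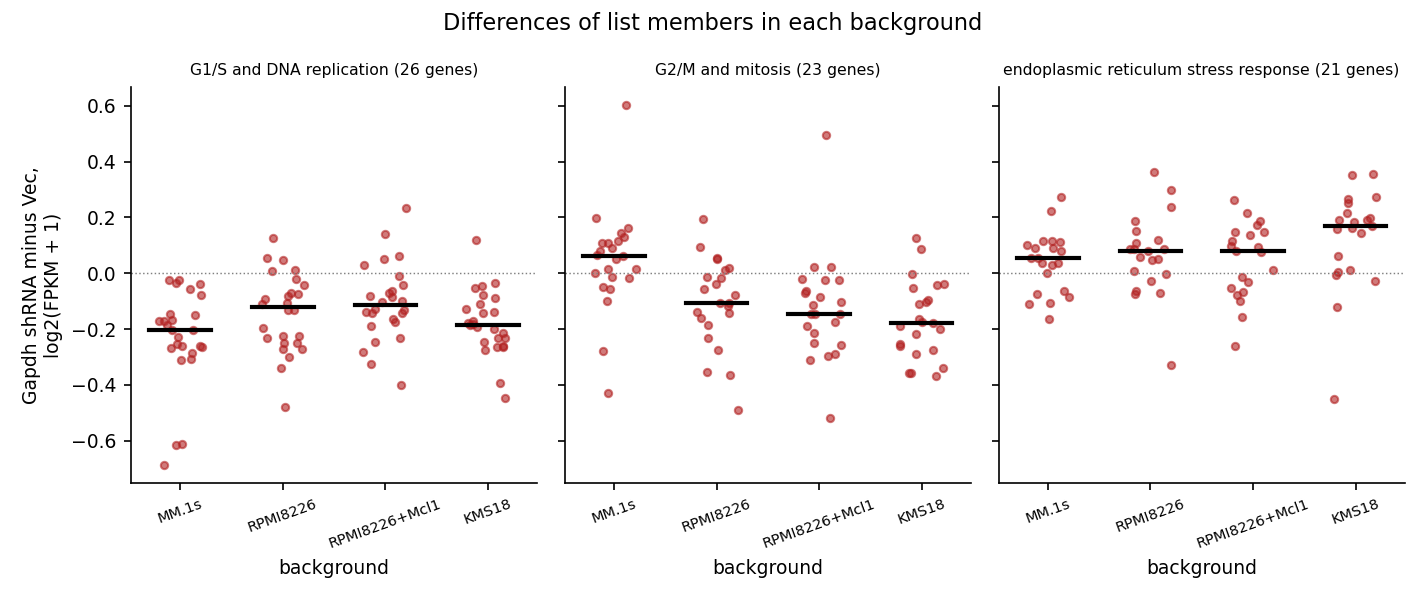
Difference of each gene from Vec with the Gapdh shRNA, log2(FPKM + 1) (y axis), for 3 gene lists in each background (x axis, in the order of GAPDH loss). Points are genes and bars are medians; the G1/S medians lie between -0.20 and -0.11, the G2/M medians run from 0.06 to -0.18 and the endoplasmic reticulum medians from 0.05 to 0.17.

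Chaperones of the endoplasmic reticulum lay slightly above Vec on average. Of 21 genes of the unfolded protein response, 19 had a mean difference above 0 and 8 were above Vec in all 4 backgrounds, against 7.35% of all genes, and 8 also after rescaling. These were HSPA5, HSP90B1, DNAJC3, CANX, HYOU1, MANF, CRELD2 and SYVN1. The group's median was 0.09, and by background 0.05 in MM.1s, 0.08 in RPMI8226, 0.08 in RPMI8226+Mcl1 and 0.17 in KMS18. The same medians were 0.11, -0.05, -0.08 and 0.12 with CD28 shRNA and -0.42, -0.21, -0.26 and -0.51 with CD86 shRNA. In 5 of the 21 the differences became higher step by step in the order of GAPDH loss (over all genes 5.15%). They were HSPA5, HSP90B1, PDIA3, PDIA4 and HYOU1. HSPA5, the main luminal chaperone (BiP), was 338, 286 and 271 FPKM with Vec in RPMI8226, RPMI8226+Mcl1 and KMS18 and 359, 317 and 323 with the Gapdh shRNA, and in MM.1s it differed by 0.03. Its mean difference was 0.13 (SE 0.05, adjusted p = 0.599 in limma). HYOU1, its nucleotide exchange factor, differed by 0.13 (SE 0.04). No member passed the test.

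Cytosolic and mitochondrial chaperones lay on the other side. Of 18 heat shock genes, 15 had a mean difference below 0 and 7 were below Vec in all 4 backgrounds (9.17% of all genes; 6 members after rescaling), with a median of -0.10. The medians by background were -0.16, -0.13, -0.04 and -0.10, beside -0.23, -0.10, -0.14 and -0.12 with CD28 shRNA and -0.27, 0.02, -0.07 and -0.32 with CD86 shRNA. HSPD1, the mitochondrial chaperonin, was 219, 219, 249 and 251 FPKM with Vec and 202, 182, 194 and 196 with the hairpin. Its mean difference was -0.27 (SE 0.05, adjusted p = 0.569 in limma), and it was among the 5 genes that passed with voom (adjusted p = 0.0381). HSP90AA1, the inducible cytosolic HSP90, was 142 FPKM with Vec and 56.9 with the hairpin in MM.1s. It was 160 and 144 FPKM in RPMI8226, 226 and 198 in RPMI8226+Mcl1, and 496 and 407 in KMS18. Its differences were -1.31, -0.15, -0.19 and -0.28, so 1 pair carried most of the mean of -0.48 (SE 0.18), which was -0.21 without MM.1s.

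MYC targets and genes of ribosome biogenesis also lay slightly below Vec on average. Of 23 tested, 21 had a mean difference below 0, 10 were below Vec in all 4 backgrounds (9.17% of all genes; 9 members after rescaling) and 0 passed, with a median of -0.07. The medians by background were -0.16, -0.08, -0.02 and -0.03 from MM.1s to KMS18 in the order of GAPDH loss. With CD28 shRNA they were -0.41, -0.09, -0.18 and -0.36 and with CD86 shRNA -0.06, 0.05, 0.06 and -0.11, and against both together the Gapdh median was 0.06. RRP9, a U3 small nucleolar RNA binding protein, differed by -0.22 (SE 0.05). MYC itself was 338, 401, 361 and 353 FPKM with Vec and 325, 403, 343 and 374 with the Gapdh shRNA, and its mean difference of -0.01 (SE 0.04) was within the spread between pairs. Ribosomal protein genes had a median of -0.01 over 28 tested.

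While GAPDH was 1.89-fold to 9.35-fold lower, 0 of the other tested enzymes before and after it passed an adjusted p under 0.05 in limma, a threshold that GAPDH itself did not pass in the same fit. Upstream of GAPDH 8 of 9 tested genes had a mean difference below 0, against 5859 of all 11288 genes tested. By background, in the order of GAPDH loss, the upstream median was -0.20, -0.08, 0.01 and -0.06. Relative to the same Vec libraries it was -0.14, 0.00, 0.10 and -0.13 with CD28 shRNA. With CD86 shRNA it was -0.15, -0.01, -0.02 and -0.13. The upstream genes had a median of -0.09 and a range of -0.12 to 0.06, and 1 member was below Vec in all 4 backgrounds (9.17% of all genes). That member was TPI1, triose phosphate isomerase, with 395, 355, 312 and 220 FPKM with Vec and 343, 334, 284 and 216 with the hairpin, a mean difference of -0.12 (SE 0.04, adjusted p = 0.599 in limma). TPI1 lies near GAPDH on chromosome 12. There 2 of 16 tested genes of a list of neighbours (12.5%) were below Vec in all 4 backgrounds, against 9.17% of all genes, and 0 passed. Downstream, 7 of 10 tested genes were below 0 on average (5859 of all 11288 genes), with a median of -0.05 and a range of -0.15 to 0.38. The highest was PGAM2, the muscle-type phosphoglycerate mutase, with 6.97, 4.72, 3.51 and 3.18 FPKM with Vec and 7.65, 6.90, 8.25 and 2.89 with the Gapdh shRNA. It differed by 0.12, 0.47, 1.04 and -0.10, and by 0.23, 0.71, 1.11 and 0.04 with CD28 shRNA. PGK1, the next enzyme after GAPDH, was 184, 239, 253 and 119 FPKM with Vec and 176, 250, 244 and 123 with the hairpin. Its mean difference was 0.00 (SE 0.04), and its sign turned when RPMI8226 or KMS18 was left out.

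Enolase ENO1 differed by -0.08 (SE 0.04), pyruvate kinase PKM by -0.03 (SE 0.05), and lactate dehydrogenase LDHA by -0.09 (SE 0.05). In MM.1s the downstream median was -0.17, and in RPMI8226, RPMI8226+Mcl1 and KMS18 it was -0.08, -0.04 and 0.02. In the same order it was -0.08, -0.09, 0.03 and -0.06 with CD28 shRNA and -0.10, 0.06, 0.15 and -0.01 with CD86 shRNA. The glucose-6-phosphate isomerase GPI ran from -0.21 in MM.1s through -0.08 and 0.04 to 0.24 in KMS18, without passing the slope test (adjusted p = 0.715 in limma). Transporters had a median of 0.08 over 7 tested. The neuronal-type glucose transporter SLC2A3 was 7.90 FPKM with Vec and 4.63 with the hairpin in RPMI8226, 2.73 and 0.793 in RPMI8226+Mcl1, under 1 FPKM in MM.1s and at 0 in both libraries of KMS18. Its adjusted p was 0.599.

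Of the branches that leave glycolysis upstream, hexosamine synthesis held 2 genes with similar values in all 4 backgrounds. GFPT1, the rate-limiting enzyme of hexosamine synthesis, was 8.43, 7.14, 5.93 and 16.1 FPKM with Vec and 10.3, 8.65, 7.37 and 19.7 with the Gapdh shRNA. Its differences lay between 0.24 and 0.27 in all 4 backgrounds, with a mean of 0.26 (SE 0.07, adjusted p = 0.569 in limma). PGM3, a later enzyme of the same pathway, differed by 0.30 (SE 0.09), from 0.20 to 0.41. In the 13 tested genes of the hexosamine and triose branches 3 were above Vec in all 4 backgrounds (7.35% of all genes) and the median was 0.03. In the pentose phosphate pathway 2 of 10 were above Vec in all 4 backgrounds (7.35% of all genes). Below Vec in all 4 were 4 members (9.17% of all genes; 3 members after rescaling). The pathway's median was -0.06, and RPIA, ribose 5-phosphate isomerase, differed by -0.27 (SE 0.06).

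Downstream, all 9 tested genes of serine and one-carbon synthesis had a mean difference below 0, with a median of -0.13, and 4 were below Vec in all 4 backgrounds (9.17% of all genes). The medians by background were -0.21, -0.08, -0.10 and -0.12. The list was lower still with CD28 shRNA, at -0.64, -0.22, -0.30 and -0.33, and with CD86 shRNA, at -0.42, -0.26, -0.27 and -0.69, and the Gapdh median against both was 0.16 with 0 members passing. MTHFD2, the mitochondrial methylene tetrahydrofolate dehydrogenase, had the largest mean difference of any list member other than GAPDH. It was 99.4 FPKM with Vec and 103 with the Gapdh shRNA in MM.1s. It was 117 and 57.3 FPKM in RPMI8226, 124 and 51.2 in RPMI8226+Mcl1, and 174 and 59.4 in KMS18. The differences of 0.05, -1.01, -1.26 and -1.54 followed the order of GAPDH loss. MTHFD2 did not pass the comparison with Vec (mean -0.94, SE 0.23, adjusted p = 0.569 in limma) or the slope test (-0.63 per log2 unit of GAPDH loss, SE 0.13, adjusted p = 0.715). Without MM.1s the slope was -0.31, and without KMS18 it was -0.98 with an adjusted p of 0.0483 in limma. That was the only 1 of 12 alternative settings in which the slope of MTHFD2 passed. In it 32 genes passed, most of them small RNA genes on few reads. MTHFD2 was also below Vec in all 8 libraries with CD28 or CD86 shRNA, at 63.2 and 51.2 FPKM in MM.1s, where the Gapdh library was not.

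The NAD+ supply genes (15 tested), citric acid cycle genes (28) and respiratory chain subunits (30) had medians of -0.06, -0.06 and -0.04, and 0 members passed. The oxidative stress list had a median of -0.01 over 22 and the energy stress list 0.03 over 17. Targets of ATF4, the integrated stress response factor, had a median of -0.10 over 21, with 5 below Vec in all 4 backgrounds (9.17% of all genes; 4 members after rescaling). By background the ATF4 median was -0.13, -0.02, -0.12 and -0.12, beside -0.48, -0.22, -0.51 and -0.10 with CD28 shRNA and -0.16, -0.20, -0.57 and -0.90 with CD86 shRNA. ASNS, asparagine synthetase, was the ATF4 target with the smallest p, at a difference of -0.27 (SE 0.06). The p53 targets had a median of -0.02 over 20, and TIGAR, a fructose bisphosphatase that opposes glycolysis, differed by -0.42 (SE 0.10) at levels of 0.683 to 2.72 FPKM. Hypoxia-inducible genes outside glycolysis had a median of 0.02 over 15. Interferon response genes, which can respond to foreign RNA, had a median of 0.00 over 17, and the small RNA machinery 0.07 over 13. Among 13 genes of the BCL2 family the median was -0.05, and MCL1 differed by 0.10 (SE 0.05). Known partners of GAPDH outside glycolysis had a median of -0.05 over 10, nuclear import factors -0.05 over 18, glycolysis regulators 0.11 over 6, plasma cell genes 0.02 over 19 and common reference genes 0.00 over 20. Of the 9 myeloid and 8 stromal markers, 1 each passed the filter and 0 were called.

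The number of genes far from Vec did not follow the depth of GAPDH loss. The count of genes at least 2-fold away from Vec was 132 in MM.1s (1.17%), 109 in RPMI8226 (0.966%), 136 in RPMI8226+Mcl1 (1.2%) and 107 in KMS18 (0.948%), with no test because each pair has 1 library a side. Most of these genes had few reads. Among the 8162 genes with a mean of at least 100 reads the counts were 10, 5, 2 and 3 in the same order. For CD28 shRNA they were 155, 26, 54 and 77, and for CD86 shRNA 54, 6, 17 and 58, against the same Vec libraries.

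The genes that were at least 2-fold away at this read depth were mostly those of 1 background, and they are named here after their values were seen. In KMS18 they were GAPDH, MTHFD2 and S100A6, and in RPMI8226+Mcl1 GAPDH and MTHFD2. In RPMI8226 they were GAPDH, MTHFD2, MAGEA6, IZUMO4 and HLA-G, of which MAGEA6, HLA-G and, in KMS18, S100A6 lay under 1.5 FPKM in that pair. In MM.1s, GAPDH missed the limit at -0.91, and HSP90AA1, RFC3, SNX12, MFSD5, HDGFRP3, PNP and LRR1 were lower and LYPLAL1, PCDH1 and BZRAP1 higher. RFC3, a clamp loader subunit, was 11.5 FPKM with Vec and 4.38 with the hairpin in MM.1s and differed by -0.18, 0.21 and -0.10 in the other 3 backgrounds.

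Across the 8161 genes other than GAPDH at that depth, the differences in MM.1s had a correlation of 0.02 to 0.03 with those in the other 3 backgrounds. The remaining pairs of backgrounds had values of 0.14 to 0.22. For CD28 shRNA the same 6 values lay between 0.38 and 0.54, and for CD86 shRNA between 0.24 and 0.49. These are descriptions across genes, which are not independent, and all 3 hairpins share the Vec library of a background.

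In the test of slope on GAPDH loss 0 of 11287 genes passed (0%), with 776 at an unadjusted p under 0.05 in limma, on 2 residual degrees of freedom. The differences of 581 genes (5.15%) became higher and of 594 (5.26%) lower step by step from MM.1s through RPMI8226 and RPMI8226+Mcl1 to KMS18. UBE2S, a ubiquitin-conjugating enzyme that works with the anaphase-promoting complex, was 129 and 137 FPKM in MM.1s and 114 and 80.8 in KMS18, with differences of 0.08, 0.00, -0.21 and -0.49 and a slope of -0.26 (SE 0.05, adjusted p = 0.715). UBE2S and the other genes named here were chosen for following the order of GAPDH loss, so the order itself follows from the choice. The glycine transporter SLC6A9 (slope 0.54), EBPL (0.32), MRPL24 (0.23), C4orf27 (0.35) and RCE1 (0.31) became higher in the order of loss. LY96 (-0.61), MESDC1 (-0.32), WBP1 (-0.51) and SMIM19 (-0.37) became lower, as UBE2S did. Also in these sets were SNORD16, SNORD36C, SNORD60, SNORD78 and MIR4461, small RNA genes on means of 5.25 to 25.1 reads. When KMS18 was left out 32 genes passed the slope test, most of them small RNA genes on few reads.

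**Figure D4:**
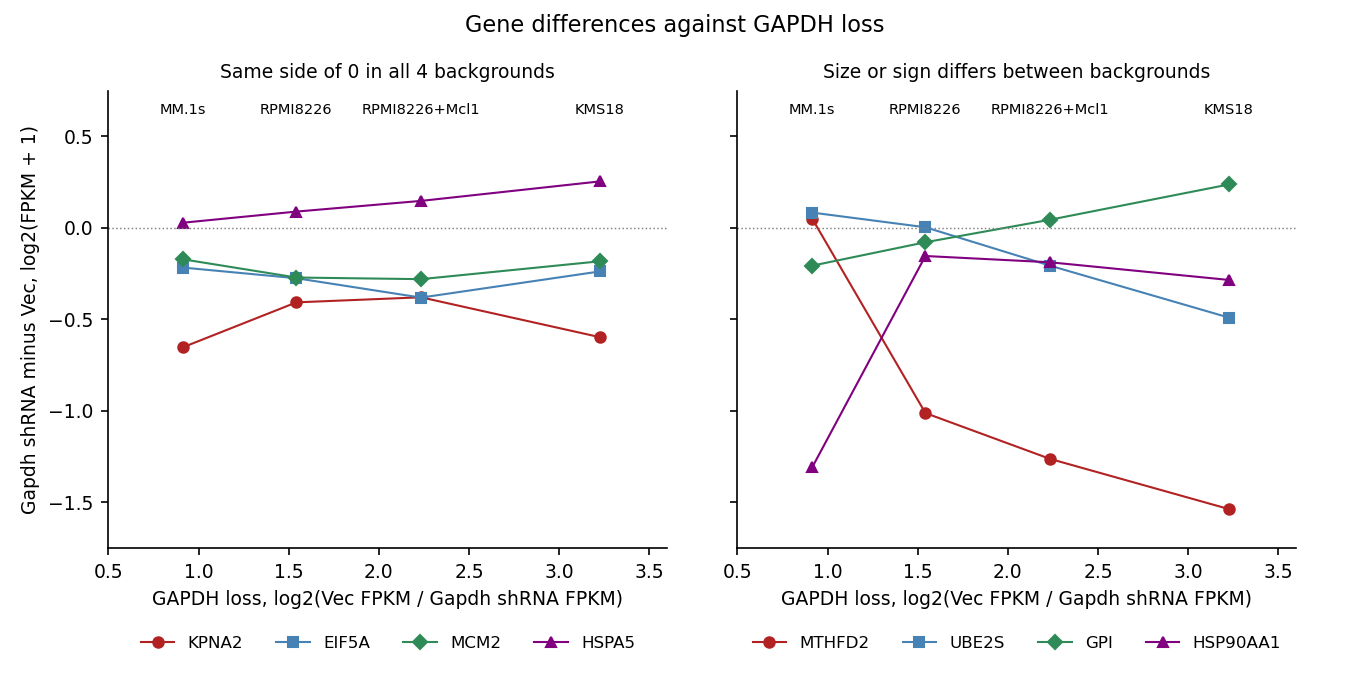
Difference from Vec with the Gapdh shRNA, log2(FPKM + 1) (y axis), against GAPDH loss as log2 of the Vec to Gapdh shRNA ratio (x axis), 1 point per background. KPNA2, EIF5A, MCM2 and HSPA5 stayed on one side of 0. MTHFD2 and UBE2S became lower and GPI higher in the order of loss, which is also an order of backgrounds, and HSP90AA1 was lowest in MM.1s. KPNA2 and EIF5A met a naming rule for one direction, and UBE2S a rule for the order of loss.

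Set against the CD28 and CD86 hairpins in place of Vec, more genes passed in the Gapdh libraries, of which GAPDH was the lowest. The 2 counts are not alike in power: this fit had 6 residual degrees of freedom and the fit against Vec 3. Of 11351 genes tested in 12 libraries, 66 were higher (0.581%) and 27 lower (0.238%) at an adjusted p under 0.05 in limma. That count of 93 depended on each background: it was 33 without MM.1s, 7 without RPMI8226, 11 without KMS18 and 0 without RPMI8226+Mcl1, where 1194 genes had an unadjusted p under 0.05. It was 229 when only genes with a mean of at least 100 reads were tested.

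Both comparisons use the same Gapdh libraries, and the 8 higher genes named here, the largest differences at a mean of at least 5 FPKM, were on average between -0.21 and 0.19 from Vec in them. SLC7A5, the large neutral amino acid transporter, was 46.7, 83.4, 120 and 276 FPKM with Vec in MM.1s, RPMI8226, RPMI8226+Mcl1 and KMS18, and 40.2, 79.9, 123 and 312 with the Gapdh shRNA. With CD28 shRNA it was 8.47, 23.6, 28.4 and 73.4 FPKM, and with CD86 shRNA 18.3, 63.5, 76.5 and 119. Its log2 difference was -0.02 against Vec and 1.43 (SE 0.12, adjusted p = 0.00215 in limma) against the other hairpins. TMEM214 and MFSD1 had differences of 0.64 and 0.61 from the other hairpins and 0.11 and -0.01 from Vec. TGFBR2, a TGF-beta receptor, stood at 0.86 and 0.17, C20orf27 at 0.79 and -0.06, and CCDC167 at 0.68 and -0.21. For C20orf27, MFSD1 and CCDC167, and for SDC1 below, the difference came mainly with 1 hairpin. Relative to Vec, C20orf27 ran from -1.91 to -1.45 with CD28 shRNA and from -0.22 to 0.32 with CD86 shRNA, and MFSD1 from -1.44 to -1.20 and from 0.04 to 0.25. CCDC167 ran from -0.20 to 0.04 with CD28 shRNA and from -1.85 to -1.34 with CD86 shRNA. KLF2, a transcription factor of lymphocytes, stood at 0.89 and -0.04, the second a mean of 0.83, -0.01, -0.44 and -0.53. SDC1 (CD138, the plasma cell surface marker) stood at 0.66 and 0.19. With CD28 shRNA SDC1 was 191, 60.5, 73.7 and 181 FPKM, beside 178, 68.7, 89.6 and 175 with the Gapdh shRNA, and with CD86 shRNA it was 69.9, 35.8, 39.0 and 59.7, the lowest of the 4 libraries in each background. SDC1 was 1 of 6 plasma cell genes of 19 that were higher than the mean of the other hairpins (0.581% of all genes), a mean that for SDC1 was lowered by CD86 shRNA. The others were TNFRSF17, MZB1, FKBP11, FAM46C and TXNDC5, and 0 of the 19 passed against Vec.

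Among the lower genes PIK3R3, a regulatory subunit of PI3 kinase, was below both comparators. It was 5.16, 20.7, 28.0 and 3.82 FPKM with Vec and 3.65, 17.9, 20.4 and 2.12 with the Gapdh shRNA. Its differences were -0.63 (SE 0.07, adjusted p = 0.0114 in limma) against the other hairpins and -0.42 (SE 0.09, adjusted p = 0.569) against Vec. ADTRP had values of -0.62 and -0.38, and ANKRA2 -0.69 and -0.17. The tyrosine kinase gene YES1 had -0.64 and -0.19, DAG1 (dystroglycan) -0.68 and 0.00, and RTP4 -0.81 and -0.12. In the same order of backgrounds DAG1 was 4.37, 6.47, 7.30 and 5.60 FPKM with Vec. It was 13.9, 13.4, 14.6 and 10.2 with CD28 shRNA and 5.38, 10.8, 7.44 and 8.09 with CD86 shRNA. YES1 was 2.76, 2.97, 2.35 and 3.69 FPKM with Vec. It was 4.61, 4.49, 4.84 and 7.32 with CD28 shRNA and 2.42, 4.68, 2.65 and 5.17 with CD86 shRNA. SNORD11 and SNORA68 were also called lower, and SNORD18B and MIR138-1 higher, on means of 1.12 to 2.25 reads. The targets of the other hairpins, CD28 and CD86, differed from Vec by 0.09 (adjusted p = 0.744) and 0.26 (adjusted p = 0.705) in the Gapdh libraries.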

How the data were processed

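Per the labels' protocols, RNA from myeloma lines was made into libraries with an mRNA kit. Values are FPKM that the authors deposited, 1 column per library. Per the submitters' processing notes the aligner TopHat2 2.0.13, edgeR 3.12.1 under R 3.2.2, and Picard were among the tools, and hg19, GRCh37 and mm9 are named without a role. How multi-mapping reads and strand were counted is not given in the sources used here. Each FPKM was multiplied by the deposited exon length and divided by a step fitted within each library. The quotients were whole reads (tolerance 0.02), 74.8% to 77.9% of low ones even, so reads are not independent molecules.

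Differences of log2(FPKM + 1) were tested with limma 3.58.1 (R 4.3.3), two-sided, with a mean-variance trend, background as a block, a minimum mean of 1 FPKM and Benjamini-Hochberg adjustment over all genes tested; 12171 genes lay below the minimum. Vec and Gapdh libraries of one background shared their deviations (correlation 0.912 to 0.953), the pairing being by cell line. The slope used the 4 within-background differences. The fits were tested on simulated data. Alternatives were another pseudocount, filter, scaling or trend, each background left out, no block, all 16 libraries, voom and, added after seeing the data, a mean of at least 100 reads.

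The comparison and the 33 gene lists were chosen with earlier results of these data known. Named genes were a fixed set, list members of smallest p, and by comparison the largest passing differences or else the smallest p with one direction (or in the order of GAPDH loss) at a mean of at least 5 FPKM. Genes past 2-fold in single pairs, and those called only by voom, were named after their values were seen. 1 gene that the rule names is not reported here.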

Additional observations from a re-analysis of the deposited data

Results flagged for a closer look

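In 3 of 70 groups of 4 backgrounds examined, 1 background stood apart from the other 3 by Dixon's criterion, where chance flags about 1 in 20 groups. CA5BP1 differed from Vec by 1.15 in RPMI8226 on the log2 scale, against 0.39 to 0.49 elsewhere. The median of the ATF4 targets was -0.024 in RPMI8226 and -0.12 to -0.13 in the other 3 backgrounds. The median of the small RNA machinery was -0.0095 in KMS18 and 0.08 to 0.10 in the others.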

How the results depend on the processing

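The count of genes passing against Vec was 0 in most alternatives, 0 to 1 when a background was left out (1 without KMS18), 1 with a mean of at least 100 reads and 5 with voom, where GAPDH (-1.82) passed too. With no replicate block it was 0, with 26 genes at an unadjusted p under 0.05 in limma against 902 in the paired fit. The count for the slope was 0 to 32 when a background was left out (1 without RPMI8226, 32 without KMS18) and 2 with GAPDH loss as a percentage. The 93 genes called against CD28 and CD86 shRNA became 7 without a filter on low values, 165 with a mean of at least 5 FPKM, 229 with at least 100 reads, 6 without a trend and 0 to 33 with a background left out. Genes past 2-fold in MM.1s, RPMI8226, RPMI8226+Mcl1 and KMS18 were 426, 340, 358 and 399 with a pseudocount of 0.1, 38, 34, 36 and 29 with a mean of at least 5 FPKM, and 10, 5, 2 and 3 with at least 100 reads. With a pseudocount of 0.5 RPMI8226 had 164 and KMS18 175. Leaving out a background turned the sign of GAPDHS (-0.32 to 0.0049), PGK1 (-0.021 to 0.022) and MYC (-0.041 to 0.012). The causes were not tested. With 1 library a side, differences near 0.1 on the log2 scale and genes on few reads cannot be resolved.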
